A study of Mus musculus with 4 samples.

Results

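The liver zonation genes examined here are 9 genes known to be expressed at one or the other end of the liver lobule. Of these, 6 are pericentral (Glul, Oat, Axin2, Tbx3, Rhbg and Lgr5) and 3 are periportal (Gls2, Hal and Cdh1). They were chosen by gene symbol, and every probe set that the array annotation pairs with 1 of these symbols was taken. This gave 11 probe sets of 22690 and 8 genes of 12393. No probe set is paired with Gls2 in that annotation, so Gls2, the glutaminase of periportal hepatocytes, was not analysed here.

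Liver RNA of male mice was compared between 4 groups on Affymetrix MOE430A arrays. They were PPARα-null mice fasted for 24 hours, wild-type mice fasted for 24 hours, fed PPARα-null mice and fed wild-type mice, all 12 to 20 weeks old, with the fed mice taken at the close of the night. The null mice were of substrain 129S4/SvJae, and the wild-type mice are given as 129Sv in the sample labels and as 129S1/SvImJ in the design text, so that genotype and substrain cannot be told apart. The RNA of each group was pooled and hybridized to 1 array, so no difference had a replicate check and no p-value was computed. The null mice lack PPARα in the whole body.

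Hepatocytes divide their work along the path of the blood. Periportal cells, which meet the blood first, take up amino acids and turn most of their nitrogen into urea, while a thin ring of pericentral cells catches the ammonia that is left and fixes it in glutamine. Wnt signals from the endothelium of the central vein stabilise β-catenin in the neighbouring hepatocytes and so maintain the pericentral programme. PPARα is a nuclear receptor for fatty acids that governs much of the hepatic response to fasting.

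The values are GCRMA intensities, an expression estimate per probe set on a linear scale with arbitrary units. The median probe set read 14.4 to 14.6 units on these arrays. Values below 16 units were set to 16, and a gene under that floor on both arrays of a comparison was not measured in it. A difference of 1.5-fold or more is called past the threshold, which is the criterion of the study for pooled arrays. In a gene with several probe sets the brightest one represents the gene. Ppara, the targeted gene, was at 16.3 units in fasted null, 755 units in fasted wild-type, 104 units in fed null and 583 units in fed wild-type liver, so its order fitted the labels in both feeding states. Yet it was 6.38-fold lower in the fasted than in the fed null pool, where it stayed well above the floor. The cause was not tested, and this limits the comparisons that use the fed null pool. The hepatocyte marker Alb was between 11968 and 17033 units. The spread between probe sets of 1 gene that were all bright gives a scale for differences. It had an SD of 0.30 on the log2 scale between the fasted pools, 0.20 between the fed pools, 0.37 between fasted and fed null liver and 0.25 between fasted and fed wild-type liver. This spread is not replicate error.

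A promoter window was available for 4 members, and those of the 3 bright ones are shown. Of these 3, Hal was the one whose fasting response differed most between genotypes. The 250 bases before the annotated start site are from RefSeq (GRCm38.p6), 5′ to 3′ on the strand of the gene. Hal is at chr10:93488518-93488767 on the plus strand, Glul at chr1:153899679-153899928 on the plus strand and Oat at chr7:132576399-132576648 on the minus strand. Capitals mark matches to the searched letters.
Hal: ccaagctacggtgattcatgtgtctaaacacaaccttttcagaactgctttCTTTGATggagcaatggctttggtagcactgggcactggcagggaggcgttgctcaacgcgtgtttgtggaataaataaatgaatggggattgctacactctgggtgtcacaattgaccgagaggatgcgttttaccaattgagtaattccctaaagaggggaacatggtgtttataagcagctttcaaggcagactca
Glul: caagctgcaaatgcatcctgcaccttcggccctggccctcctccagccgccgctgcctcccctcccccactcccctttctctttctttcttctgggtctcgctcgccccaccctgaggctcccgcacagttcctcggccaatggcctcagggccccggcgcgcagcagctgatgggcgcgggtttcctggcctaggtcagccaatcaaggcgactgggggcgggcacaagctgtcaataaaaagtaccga
Oat: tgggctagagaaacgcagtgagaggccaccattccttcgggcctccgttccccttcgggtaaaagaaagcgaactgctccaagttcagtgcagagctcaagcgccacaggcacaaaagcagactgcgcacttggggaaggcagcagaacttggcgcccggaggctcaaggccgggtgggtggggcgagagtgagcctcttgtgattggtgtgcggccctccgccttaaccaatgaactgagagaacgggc

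Windows were matched for 4 members, the 3 above and Axin2, and searched from 250 bases before to 50 bases after the start site on both strands. The searched letters were CTTTGAT and CTTTGAA, which are core letters of the elements that the β-catenin partners TCF and LEF bind, and AGGTCA repeated directly after 1 base of any kind, the element that PPAR and RXR bind. The only match was CTTTGAT in the Hal window, on the strand of the gene, where its first base is at position -199 from the start site. Of all 32851 windows of this length, 3.73% hold CTTTGAT, 5.14% hold CTTTGAA and 0.0396% hold the AGGTCA repeat. The absence of a match says only that these letters are not in the window. The upstream stretches also differed in base composition, with 45.6% G and C in Hal against 64.8% in Glul, 60% in Oat and 69.2% in Axin2.

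Of the 8 genes with a probe set, 6 were above the floor on every array (Oat, Glul, Hal, Cdh1, Tbx3 and Rhbg), Lgr5 on 3 of the 4, and Axin2 on none. The plot of intensities gives every reading. Probe sets differ in how well they bind, so their levels do not rank the genes by abundance.

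**Figure D1:**
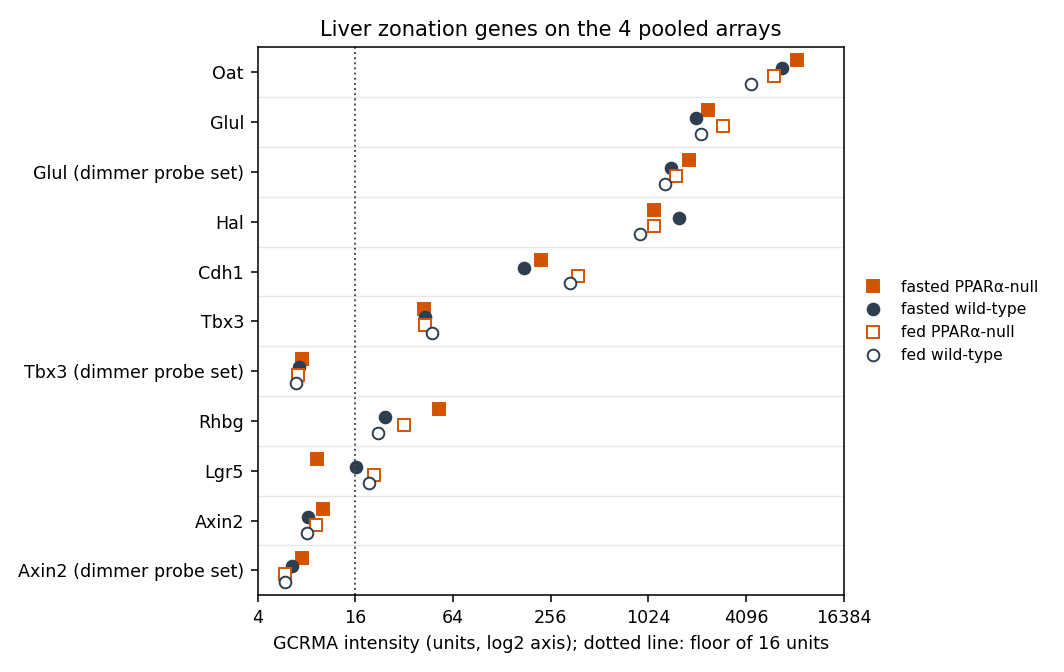
GCRMA intensity (log2 axis) of each probe set of the 8 zonation genes, with 1 point per pooled array (squares for PPARα-null, circles for wild-type, filled for fasted, open for fed). The floor of 16 units is dotted. Hal in fasted wild-type liver stands at 1586 units, to the right of the other 3 pools, and both Axin2 probe sets lie left of the floor on all arrays.

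Glul encodes glutamine synthetase, the enzyme that joins ammonia to glutamate in the innermost pericentral hepatocytes, and it is the classical β-catenin target of the liver. Its brighter probe set read 2383 units in fasted null, 2017 units in fasted wild-type, 2940 units in fed null and 2159 units in fed wild-type liver. Its dimmer probe set read 1830, 1410, 1517 and 1304 units in the same order of pools. In both probe sets and both feeding states the null pool was above the wild-type pool, by 1.18-fold and 1.30-fold in the fasted and by 1.36-fold and 1.16-fold in the fed state. None of these differences reached the threshold.

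The fasting response of Glul had no settled direction. In null liver the log2 difference of fasted over fed was -0.30 in the brighter and 0.27 in the dimmer probe set, and in wild-type liver it was -0.10 in the brighter and 0.11 in the dimmer one. Among the 609 genes with a pair of bright probe sets in the null fasting comparison, 25.0% had probe sets of opposite sign. Both Glul probe sets carry a suffix that marks possible matches to several transcripts of the gene.

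Oat encodes ornithine aminotransferase, which turns ornithine into a precursor of glutamate and proline, and in the liver it lies in the same pericentral cells as glutamine synthetase. Its single probe set read 8391 units in fasted null, 6821 units in fasted wild-type, 6092 units in fed null and 4383 units in fed wild-type liver. The 2 fasted pools were above the 2 fed pools, and within each feeding state the null pool was above the wild-type pool.

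Oat was 1.38-fold higher in fasted than in fed null liver, short of the threshold, and 1.56-fold higher in fasted than in fed wild-type liver, past it. In null liver it passed the threshold, at a log2 difference of 0.59, once the arrays were centred on bright probe sets. Null liver was above wild-type liver by 1.23-fold in the fasted and by 1.39-fold in the fed state. In the fed state 10.3% of the 3529 genes that reached 64 units on the brighter array differed by as much as Oat or more. There 12.0% differed by as much as the brighter Glul probe set. Between the fasted pools 55.7% of 3576 such genes differed by as much as Oat or more, and 62.3% by as much as that Glul probe set. The dimmer Glul probe set had log2 differences of 0.22 between the fed and 0.38 between the fasted pools. For Oat, the fasting response of null minus that of wild-type was -0.18 on the log2 scale, less than the spread between probe sets in either fasting comparison.

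Rhbg, which encodes an ammonium transporter of the Rh family in the membrane of pericentral hepatocytes, was the member that differed most between genotypes. It read 52.6 units in fasted null, 24.4 units in fasted wild-type, 31.8 units in fed null and 22.1 units in fed wild-type liver. The 2 null pools were the highest, with the fasted null pool above all others. Rhbg was 2.16-fold higher in the fasted null than in the fasted wild-type pool and 1.44-fold higher in fed null than in fed wild-type liver.

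Fasted over fed, Rhbg was 1.66-fold higher in null and 1.10-fold higher in wild-type liver, and the response of null minus that of wild-type was 0.58 on the log2 scale, at the edge of the threshold and past it under 3 other scalings. All 4 values lay under 64 units, and Rhbg was not measured with the floor at that level. Rhbg has 1 probe set, so no other reading of it was available.

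Tbx3 encodes a T-box transcriptional repressor that is expressed in pericentral hepatocytes. Its brighter probe set read 42.3 units in fasted null, 43.1 units in fasted wild-type, 43.0 units in fed null and 47.2 units in fed wild-type liver. No pair of pools differed by more than 1.10-fold in a comparison. The dimmer probe set was between 6.92 and 7.54 units, under the floor on every array.

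Lgr5 encodes the R-spondin receptor that enhances Wnt signals in pericentral hepatocytes. It was under the floor at 9.35 units in fasted null liver, and read 16.2 units in fasted wild-type, 20.7 units in fed null and 19.4 units in fed wild-type liver. The only pool under the floor was the fasted null pool, in which Lgr5 was at least 1.30-fold lower than in fed null liver. The other readings were so close to the floor that no larger difference could be measured on this array.

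Axin2, a scaffold of the complex that degrades β-catenin and itself a Wnt target, was under the floor on all arrays. Its 2 probe sets read between 8.05 and 10.1 units and between 5.89 and 7.49 units. No comparison was made for it.

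Hal encodes histidine ammonia-lyase, which opens the breakdown of histidine by releasing its amino group as ammonia in periportal hepatocytes. It read 1109 units in fasted null, 1586 units in fasted wild-type, 1110 units in fed null and 906 units in fed wild-type liver. Fasted wild-type liver stood above the other pools, and the 2 null pools differed by less than 1 unit. Fasted over fed, the log2 difference was -0.001 in null liver, with a sign that turned under 3 other scalings, while Hal was 1.75-fold higher in wild-type liver.

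The fasting response of Hal in null minus that in wild-type liver was -0.81 on the log2 scale, the largest among the members with the floor in place. Without a floor Lgr5 had -0.89. A difference past the threshold in either direction was found for 24.1% of the 6947 genes measured, so responses that differed past the threshold were common on these arrays. Between genotypes Hal was 1.43-fold lower in the fasted null than in the fasted wild-type pool and 1.23-fold higher in fed null than in fed wild-type liver. Neither reached the threshold.

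Cdh1 encodes E-cadherin, the adhesion molecule of epithelial cells that in the liver is found on periportal hepatocytes and bile duct cells. It read 222 units in fasted null, 175 units in fasted wild-type, 375 units in fed null and 337 units in fed wild-type liver. Both fasted pools were below both fed pools. Fasted over fed, Cdh1 was 1.68-fold lower in null and 1.93-fold lower in wild-type liver, and the response of null minus that of wild-type was 0.19 on the log2 scale.

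Null over wild-type, Cdh1 was 1.27-fold higher in the fasted and 1.11-fold higher in the fed state, short of the threshold. The bile duct markers Krt19, Krt7, Epcam and Cftr were under the floor on all 4 arrays, and Sox9 read 33.9 units in fasted null, 20.8 units in fasted wild-type, 20.7 units in fed null and 23.6 units in fed wild-type liver. In whole liver RNA fewer cells of a type and less RNA per cell cannot be told apart. The genes whose profiles over the 4 arrays lay nearest to that of Cdh1 were Car3, Ddost and Ccnh, at Euclidean distances of 0.07, 0.10 and 0.12 on the log2 scale among 2900 genes. With 4 arrays such nearness is a description only.

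Counted together, 1 of the 7 measured members was past the threshold in fasted null over fasted wild-type liver (Rhbg, higher), where 22.9% of all measured genes were, 8.82% higher and 14% lower. In fed null over fed wild-type liver it was 0 of 7, against 4.77% of all measured genes (2.52% higher and 2.25% lower). Fasted over fed, 2 of 7 were past it in null liver (Rhbg higher, Cdh1 lower), against 31.1% of all measured genes (12.7% higher and 18.4% lower). In wild-type liver 3 of 7 were (Oat and Hal higher, Cdh1 lower), against 17.4% of all measured genes (8.67% higher and 8.76% lower). Among genes at 64 units or more on the brighter array, as Oat, Hal and Cdh1 are, 907 of 3571 passed it in wild-type fasting. In null fasting 1553 of 3671 such genes did, with 1121 of 3576 between the fasted and 226 of 3529 between the fed pools. With 7 genes, 1 gene more or less moves each share widely. In the genotype comparisons and in null fasting the counts were near the background, and that of wild-type fasting was not read as apart from it. The comparisons share arrays in part, so their counts are not independent of each other.

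**Figure D2:**
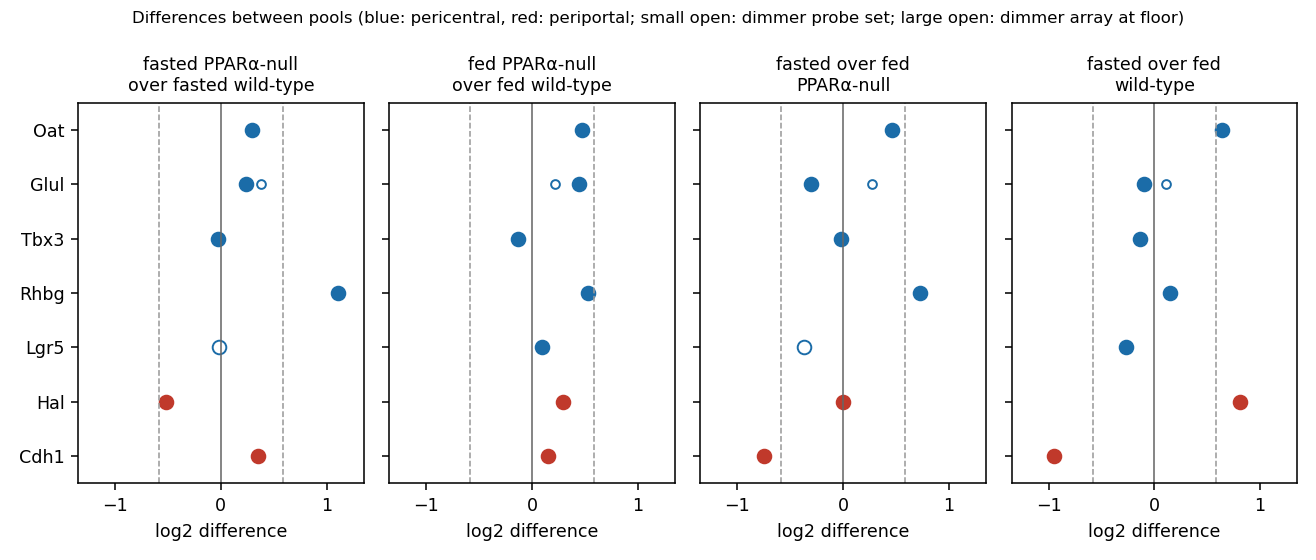
Log2 differences of the 7 measured zonation genes in the 4 comparisons (blue for pericentral, red for periportal genes; dashed lines at 1.5-fold). Small open points are the dimmer Glul probe set, and large open points have the dimmer array at the floor. Rhbg is at 1.11 between the fasted pools and Hal at -0.001 for fasting in null liver but at 0.81 in wild-type liver.

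Members of 1 end of the lobule did not all move 1 way. The 5 measured pericentral members had a median log2 difference of 0.24 between the fasted pools and of 0.45 between the fed pools, beside -0.02 and -0.00 for all measured genes. Both medians are the value of the brighter Glul probe set, and the dimmer Glul probe set had 0.38 and 0.22. Fasted over fed, the median of these members was -0.02 in null liver, which turned to 0.11 after centring, and -0.10 in wild-type liver. The 2 measured periportal members went opposite ways between the fasted pools and in wild-type fasting. Oat, Glul and Rhbg, which handle ornithine and ammonia in pericentral cells, were each higher in the null pool in both feeding states. They are grouped here with their values known. Tbx3 had -0.03 between the fasted and -0.13 between the fed pools, and Lgr5 had -0.02 and 0.09. The 2 genotype comparisons use separate arrays but share the difference of substrain. Of the 6 differences of Oat, Glul and Rhbg, only that of Rhbg between the fasted pools passed the threshold.

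Further zonated genes were read in the same way. Of 16 measured pericentral genes that are not members, 4 were higher and 3 lower past the threshold in the fasted null than in the fasted wild-type pool, where 22.9% of all measured genes passed it in either direction. The median was 0.19. After centring the median was 0.35, with 5 genes higher and 1 lower past the threshold, and after quantile normalization 4 were higher and 2 lower. Lect2, a secreted hepatocyte protein, read 1132 units in fasted null, 261 units in fasted wild-type, 1810 units in fed null and 1320 units in fed wild-type liver, so that it was 4.34-fold higher in the null pool in the fasted state. Cyp1a2, a pericentral cytochrome P450, was 1.82-fold higher and Gulo, the last enzyme of vitamin C synthesis, 1.70-fold higher. Cyp1a2 read 4922 units in fasted null, 2710 units in fasted wild-type, 5411 units in fed null and 5558 units in fed wild-type liver. Gulo read 2676, 1576, 2535 and 2041 units in the same order. In both genes the fasted wild-type pool was the lowest. Cyp7a1, which commits cholesterol to bile acids, stood at the other end with 44.1 units in fasted null against 654 units in fasted wild-type liver.

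Of 14 further periportal genes measured, 1 was higher and 1 lower in the same comparison, namely Tat at 1.53-fold higher and Ctsc at 1.65-fold lower, and the median was -0.06, or 0.01 after quantile normalization and 0.09 after centring. In the fed state 1 of 16 pericentral genes was past the threshold (Gstm3, higher) and 0 of 14 periportal genes were, with medians of 0.18 and -0.11. The share of all measured genes past it there was 4.77%. Cyp2e1, a pericentral marker, read 12077 units in fasted null, 9398 units in fasted wild-type, 8256 units in fed null and 8749 units in fed wild-type liver. Cps1, the entry enzyme of the urea cycle, was within 1.31-fold in every comparison.

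Under fasting the further pericentral genes had a median of -0.31 in null and of -0.31 in wild-type liver, and the periportal ones a median of 0.26 in null and of 0.09 in wild-type liver. Past the threshold, 1 pericentral gene was higher and 7 were lower in null liver (2 and 3 after centring), and 2 were higher and 4 lower in wild-type liver. Among the periportal genes 4 were higher and 3 lower in null liver, and 2 were higher and 2 lower in wild-type liver. The shares of all measured genes past the threshold were 31.1% in null (12.7% higher and 18.4% lower) and 17.4% in wild-type fasting (8.67% higher and 8.76% lower). With 16 and 14 genes, these counts were not read as a shift of either zone. Asl of the urea cycle was 2.87-fold higher in null and 2.46-fold higher in wild-type liver. Hsd17b6 was 3.39-fold lower in null and 2.55-fold lower in wild-type liver. Of the pericentral genes, Cldn2, a tight junction gene, was 2.79-fold lower in null and 1.26-fold lower in wild-type liver. Nr1i3 was 1.61-fold higher in null and 3.01-fold higher in wild-type liver. Cyp7a1 was 3.53-fold lower in null but 3.33-fold higher in wild-type liver. In wild-type liver Lect2 was 5.07-fold lower, and Gstm3 at least 5.35-fold lower with its fasted reading under the floor. Lect2 and Gstm3 were lower past the threshold in null liver too.

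**Figure D3:**
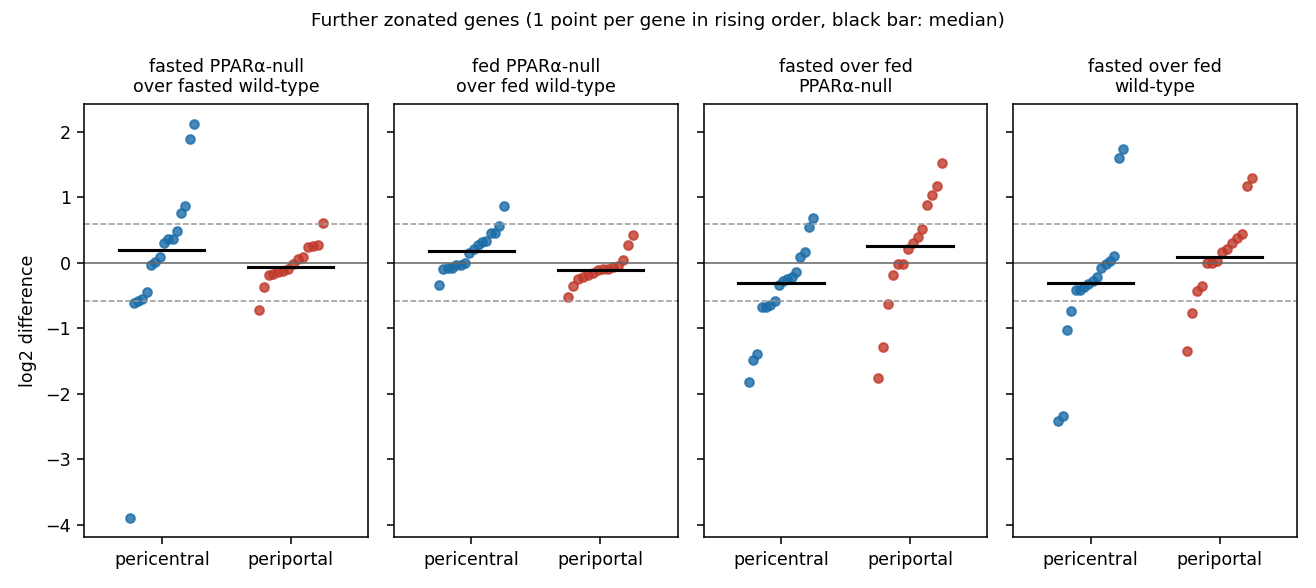
Log2 differences of 16 further pericentral (blue) and 14 further periportal (red) genes in the 4 comparisons, 1 point per gene in rising order, with the median as a black bar and dashed lines at 1.5-fold. The pericentral medians are at -0.31 in both fasting comparisons, and the lowest point between the fasted pools is Cyp7a1.

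The partners of the members in ammonia and glutamine handling had positive differences of fasted over fed in 10 of 15 genes in null and in 11 of 15 in wild-type liver, with Glul, Oat and Rhbg counted in. Among all measured genes, 3262 of 6799 in null and 3347 of 6574 in wild-type liver were positive. Of the 15 listed genes, 6 were higher past the threshold and 0 lower in null fasting (median 0.39). In wild-type fasting 3 were higher and 0 lower (median 0.18). The shares of all measured genes were 12.7% higher and 18.4% lower in null fasting, and 8.67% higher and 8.76% lower in wild-type fasting. Got1 and Gpt2 encode transaminases that pass amino groups to and from glutamate. Got1 was 5.12-fold higher in null and 3.50-fold higher in wild-type liver, and Gpt2 was 3.77-fold and 2.61-fold higher in the same order.

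Slc38a2, a transporter of neutral amino acids such as glutamine, was highest in the fasted null pool, as Rhbg was. It read 2958 units in fasted null, 1426 units in fasted wild-type, 1286 units in fed null and 1224 units in fed wild-type liver. Between the fasted pools 3 of the 15 genes were higher past the threshold and 0 lower, and these were Rhbg, Slc38a2 (2.07-fold) and Got1 (1.58-fold). All measured genes were 8.82% higher and 14% lower past it there.

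The enzymes that follow Hal were read for the same pools. Uroc1, which acts on the urocanate that Hal makes, was 1.24-fold higher after fasting in null and 1.23-fold higher in wild-type liver. Amdhd1, the next enzyme, read 1247 units in fasted null, 3047 units in fasted wild-type, 2316 units in fed null and 3041 units in fed wild-type liver. It was 2.44-fold lower in the fasted null than in the fasted wild-type pool and was the 1 of 4 genes of histidine breakdown past the threshold there. The share of all measured genes past it was 22.9%. Ftcd, which ends the pathway by passing the remaining carbon to folate, was within 1.14-fold in every comparison.

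**Figure D4:**
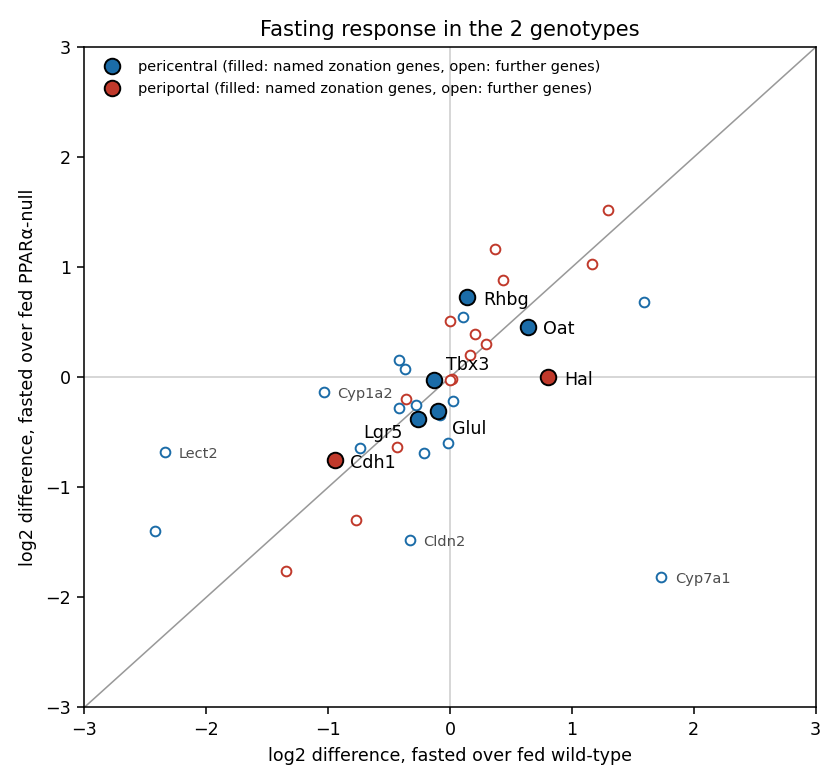
Log2 difference of fasted over fed liver in PPARα-null (vertical) and wild-type (horizontal) mice for the 7 measured zonation genes (filled) and further zonated genes (open), blue for pericentral and red for periportal, with the line of equal response. Hal lies at -0.001 on the null and 0.81 on the wild-type axis, below the line, and Rhbg at 0.73 and 0.14, above it.

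The Wnt pathway could be read only in part, because 9 of its 28 genes with a probe set, Axin2 among them, were under the floor on all arrays. The Wnt ligand genes Wnt2 and Wnt9b were among these 9. Ctnnb1, which encodes β-catenin, read 2107 units in fasted null, 3000 units in fasted wild-type, 3860 units in fed null and 3757 units in fed wild-type liver. It was 1.83-fold lower in fasted than in fed null liver, and its other 2 probe sets had log2 differences of -1.28 and -1.55 there. Between the fasted pools the brightest probe set had a log2 difference of -0.51, short of the threshold, and the others -1.01 and -1.05, past it.

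Tcf7l2, the main β-catenin partner in liver, read 20.2 units in fasted null, 35.2 units in fasted wild-type, 33.1 units in fed null and 34.3 units in fed wild-type liver. It was 1.74-fold lower in the fasted null than in the fasted wild-type pool, on low values and in 1 of 4 probe sets, the others being under the floor. Over the 19 measured genes of the pathway the fasted pools differed past the threshold in 2 higher and 4 lower genes, with a median of -0.12, and 2 were lower after quantile normalization. The shares of all measured genes were 8.82% higher and 14% lower. The higher pathway genes were Myc and Ccnd1, a pair of β-catenin targets that drive cell division, both under 64 units and named after their values were seen. A second Ccnd1 probe set had 0.42, short of the threshold. Between the fed pools Ccnd1 was 1.89-fold higher too, the 1 pathway gene past the threshold there. The lower genes between the fasted pools were Tcf7l2, Lrp6, Fzd7 and Dvl1. Dvl1, the brightest of these, had -0.59, with 0.13 in its other probe set. Of the pericentral members, Glul, Oat and Rhbg had log2 differences of 0.24, 0.30 and 1.11 between the fasted pools, and Tbx3 had -0.03. Lgr5 had -0.02 with its fasted null reading at the floor and -0.79 without a floor, and Axin2 was not measured.

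Other cadherin genes and catenin genes were measured beside Cdh1. In null fasting 3 of 7 cadherin and catenin genes were lower past the threshold, namely Cdh1, Ctnnb1 and Cdh2, the N-cadherin gene that hepatocytes also express. The share of all measured genes that were lower past it was 18.4%. The catenin genes Ctnna1, Ctnnd1 and Jup had log2 differences of -0.13, -0.02 and -0.01, and the cadherin gene Cdh5 had -0.04. The brightest probe set of Cdh2 was 1.69-fold lower, with a log2 difference of -0.31 in the other. In wild-type fasting 1 of 6 was lower past the threshold, and this was Cdh1, beside 8.76% of all measured genes.

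Markers of other cells moved with all 4 comparisons. The shares of all measured genes past the threshold were 22.9% between the fasted pools and 4.77% between the fed pools. They were 31.1% in null and 17.4% in wild-type fasting. Of 7 measured Kupffer cell or macrophage markers, 6 were higher past the threshold and 0 lower in the fasted null than in the fasted wild-type pool. The summed level of the list was 983 units in fasted null, 432 units in fasted wild-type, 773 units in fed null and 756 units in fed wild-type liver, and Cd68 was under the floor throughout. Endothelial markers summed to 756 units in fasted null, 416 units in fasted wild-type, 309 units in fed null and 343 units in fed wild-type liver, with Stab2 carrying most of it and Pecam1 under the floor. Between the fasted pools 2 of 5 measured (Stab2 and Lyve1) were higher past the threshold and 0 lower. Cdh5, Tek and Kdr had log2 differences of 0.17, 0.11 and -0.20 there. In wild-type fasting 5 of 7 of the Kupffer cell or macrophage markers were lower. Exocrine pancreas markers summed to 78.8 units in fasted null, 74.6 units in fasted wild-type, 192 units in fed null and 104 units in fed wild-type liver, with Cpa1 under the floor. Of 4 measured, 3 were higher in fed null than in fed wild-type liver and 3 were lower in fasted than in fed null liver. Stellate cell or fibroblast markers summed to 282 units in fasted null, 224 units in fasted wild-type, 407 units in fed null and 298 units in fed wild-type liver, with Des, Col1a1 and Lrat under the floor. Of 4 measured, 2 (Col3a1 and Pdgfrb) were higher in fed null than in fed wild-type liver and 2 were lower in fasted than in fed null liver. The part of these cells in the higher Rhbg value of the fasted null pool, and in the other differences, was not tested. Markers of adipocytes (Adipoq and Retn) and of skeletal muscle were under the floor on all arrays.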

How the data were processed

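Liver RNA was pooled within each group, and 1 array was hybridized for each of the 4 groups. The design text gives 5 mice per group, while the sources differ on whether every pool held that many. The authors deposited linear-scale intensities from GCRMA, for which the processing notes of the submitters give version 2.20. It corrects background by probe sequence, normalizes quantiles and summarizes each probe set. The sources used here do not say which arrays went into one normalization. The fold threshold follows the authors' criterion for pooled arrays. The number of arrays limits the precision.

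Here values were converted to log2 with a floor of 16 units, and each comparison is a difference between 2 arrays. No test was run. Of 22690 probe sets, 20393 name 1 gene, 691 name several (never used) and 1606 have no gene name in the platform annotation, with 20364 matched by gene identifier to the RefSeq table of GRCm38.p6. Promoter windows came from RefSeq. The members and the gene lists were chosen with earlier results of these data known. Beside all members, genes were named from a set of up to 4 per list and comparison with the largest difference past the threshold and 64 units on the brighter array. Not every gene of this set is described above, with Pck1, Aldh1b1 and Slc38a4 left out. Also named were Ppara, Cyp2e1, Cyp1a2, Cps1, Ctnnb1 and Tcf7l2. For members at 64 units with a log2 range of at least 1, the 3 nearest profiles among genes reaching 128 units were added. Further list genes named in the text were chosen after their values were seen. The lists of lymphocyte, stellate cell and exocrine pancreas markers were also measured, with 1, 4 and 2 members measured and 0, 1 and 0 past the threshold between the fasted pools. In wild-type fasting 0 of 1 lymphocyte, 1 of 4 stellate cell and 0 of 3 pancreas markers passed it, and in null fasting 1 of 1 lymphocyte markers did. All measured genes passed it at shares of 22.9% between the fasted pools, 17.4% in wild-type fasting and 31.1% in null fasting.

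Alternatives were a floor of 64 units or none, a threshold of 2-fold, the mean of probe sets, leaving out ambiguous suffixes (_s_at, _x_at and _a_at), quantile normalization, centring on probe sets of 64 units or more, and a lowess trend (fraction 0.3). The procedure was tested on simulated data. Python 3.11.15, numpy 2.4.6, pandas 2.3.3, statsmodels 0.14.6 and matplotlib 3.10.9 were used.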

Additional observations from a re-analysis of the deposited data

Results flagged for a closer look

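Hal was near level under fasting in PPARα-null liver and higher in wild-type liver, with a log2 difference of -0.001 for fasted over fed in PPARα-null and of 0.81 in wild-type liver, and a difference of responses of -0.81. The difference was not tested, since each group is 1 pooled array. It is listed here because the signs were opposite, but the null value is so close to 0 that its sign has no meaning. It was positive, as in wild-type liver, under 3 other scalings, at 0.07 after quantile normalization and after removal of the intensity trend, and 0.13 after centring.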

How the results depend on the processing

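No paired analysis was possible because each group holds 1 array and the labels number no replicates. Of the 264 member values under an alternative, 0 called differences changed sign, 13 changed their side of the threshold and 12 changed sign, all of these between values near 0 (Tbx3, Glul and Hal). The members past the threshold numbered 1 between the fasted pools, but 0 with a floor of 64 units and 2 without a floor, where Lgr5 joined at -0.79 on values under the floor. In null fasting they were 2, but 1 with a floor of 64 units, 0 at 2-fold, 3 without a floor, when Lgr5 joined at -1.15, and 3 after centring, when Oat reached 0.59. In wild-type fasting they were 3, but 0 at 2-fold. The difference of the Rhbg responses passed the threshold at 0.70 with quantile normalization, 0.74 with centring and 0.66 with the lowess trend removed.

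Over the wider lists the counts were 19 between the fasted pools (12 with a floor of 64 units, 8 at 2-fold), 2 between the fed pools (1 with a floor of 64 units, 0 at 2-fold, 1 with the mean of probe sets) and 28 in null fasting (13 at 2-fold). Over all genes they were 1544 between the fasted pools (941 with that floor, 668 at 2-fold), 312 between the fed pools (180 and 103), 2112 in null fasting (1312 and 1007) and 1146 in wild-type fasting (450 at 2-fold). Centring raised log2 differences by 0.15 between the fasted pools and by 0.13 in null fasting, which turned the median of the further periportal genes between the fasted pools to 0.09. The share of lower genes among those past the threshold was 61.4% between the fasted pools (44.9% after centring) and 59.1% in null fasting (47.6% after centring). Signal near the floor limits Rhbg, Tbx3, Lgr5 and Tcf7l2.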
